A study of Mus musculus with 6 samples.

Results

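The 52 genes described here are those of the mouse proteasome and its helpers, taken from the deposited expression table by symbol: every Psma, Psmb, Psmc, Psmd, Psme, Psmf or Psmg gene with a number, and Pomp. They are 52 of the 19977 genes in the table, and 51 of them passed the filter of a mean of at least 1 FPKM (fragments scaled by transcript length and by the library's total) over the 6 libraries, against 10509 genes of the whole table. The study measured messenger RNA by sequencing in CD4+ T cells, the helper T cells, of C57BL/6 wild type mice. The old group has 3 libraries from 11-month-old mice, and the young group has 3 libraries from mice of 6 to 8 weeks, whose sample titles carry the age code 1M. Lymph nodes and spleen were the source in both groups, the helper cells were sorted by flow cytometry, and RNA was taken after 6 hours of culture with anti-CD3 plus anti-CD28, antibodies that stimulate the T cell receptor and its costimulatory receptor. The labels give no unstimulated cells, so the comparison is of age within stimulated cells, and they do not say whether the libraries of a group came from separate animals or pools. The p-values below therefore rest on the spread among libraries alone, part of which may be technical.

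The proteasome is the barrel-shaped protease that degrades ubiquitin-tagged proteins in the cytosol and nucleus. Its core is made of rings of alpha subunits, which form the gate, and rings of beta subunits, some of which carry the catalytic sites. A regulatory cap recognises, unfolds and feeds in the tagged protein, while other activators open the gate without ubiquitin. In lymphocytes, and in other cells after interferon gamma, the catalytic subunits Psmb5, Psmb6 and Psmb7 are replaced in newly built cores by Psmb8, Psmb9 and Psmb10, which gives the immunoproteasome and alters the peptides it releases for antigen presentation.

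The expected count totals per library ran between 16932551 and 18708205, so depth was nearly even. A standard 26S subunit, meaning 1 of the 31 genes of the alpha ring, the constitutive beta ring, the ATPases, the base and the lid, had between 870 and 6377 expected counts in a library. One library stood apart before any comparison: over all genes tested, young replicate 1 correlated at 0.924 and 0.911 with the other young libraries, while those correlated with each other at 0.977. The CD4 T cell markers (Cd3d, Cd3e, Cd3g, Cd4, Lat and Cd28) summed to 2312 to 2902 CPM (counts scaled to a common library total with edgeR's TMM factors) in old libraries and 2313 to 2525 CPM in young libraries. B cell markers summed to 15.6 to 25.6 CPM in old libraries, 38.1 CPM in young replicate 1 and 13.3 to 14.2 CPM in the other young libraries. Macrophage markers summed to 11.5 to 16.4 CPM in old libraries, 19.7 CPM in young replicate 1 and 13.2 to 14.96 CPM in the other young libraries. Markers of CD8 T cells summed to 11.3 to 14.6 CPM in old libraries and 16.6 to 27.5 CPM in young libraries, those of neutrophils to 3.78 to 23.6 CPM in old and 27.0 to 58.6 CPM in young libraries, and those of dendritic cells to 26.4 to 30.9 CPM in old and 16.2 to 23.4 CPM in young libraries. Cd8b1 was lower in every old library, while Cd8a overlapped. Among the dendritic markers only Zbtb46 was higher in every old library. It had 14.5, 16.1 and 20.6 CPM in old libraries, against 5.79, 8.87 and 8.2 CPM in young libraries. Siglech, which did not pass the filter, was lower in every old library, and Itgax, Flt3 and Xcr1 overlapped. It had only 0.491, 0.702 and 0.328 CPM in old libraries, against 0.926, 1.18 and 1.21 CPM in young libraries. Of the neutrophil markers, S100a8, Ngp and Camp were lower in every old library and S100a9 overlapped, while Mpo and Elane were below 1 CPM in every library. Of the natural killer cell markers, which summed to 30.3 to 37.9 CPM in old and 47.9 to 99.8 CPM in young libraries, nearly all was Eomes, while Ncr1, Klrb1c and Klra8 were below 1 CPM in every library. Erythroid markers summed to at most 0.929 CPM in old and 3.64 CPM in young libraries. The part of these cell markers in the results below was not tested, and in bulk samples fewer cells of a type and less RNA per cell cannot be told apart.

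No proteasome gene was called different between old and young stimulated CD4+ T cells. By the quasi-likelihood test of edgeR, with p-values adjusted over all genes by the Benjamini-Hochberg method, 0 of 51 members passed an adjusted p of 0.05, where 0.875% of all genes tested passed. DESeq2 called 0 members against 4.77% of all genes, limma called 0 against 0.942%, and 0 members had an unadjusted p under 0.05 in edgeR, against 10.6% of all genes. The fitted log2 difference, old minus young, was negative in 44 of the 51 members and positive in 7, and negative in 55.1% of all genes. The median difference of the members was -0.11, against -0.04 over all genes. That majority depended on the scale and on single libraries: 30 of 51 differences were negative by limma on log2(TPM + 1), and 14 of 51 without young replicate 3. By that limma fit the median over all genes was itself 0.041, with the members below it at -0.014. Without young replicate 3 the median over all genes was -0.016, with the members above it at 0.059. In CPM, the old and young groups overlapped in all 51 members, whereas they were apart in 16.4% of all genes. The smallest adjusted p of any member by the edgeR quasi-likelihood test (Benjamini-Hochberg) was 0.631.

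The members had a recurrent order over the libraries. Young replicate 1 was the lowest of the 6 libraries in 43 of 51 members, against 32.8% of all genes, and young replicates 2 and 3 often lay on the other side of the old libraries. In 35 of the 51 members every old library fell between young replicate 1 below and both other young libraries above, an order that 13% of all genes had. Without young replicate 1, the difference was negative in 49 of 51 members, against 49% of all genes, with a median of -0.32 against 0.01 over all genes. By the edgeR quasi-likelihood test (Benjamini-Hochberg), 3 members were then called lower in old cells, where 2.98% of all genes were: Psma5 (log2 difference -0.61 ± 0.13, SE, adjusted p = 0.0295), Psma1 (-0.55 ± 0.13, adjusted p = 0.0414) and Psmd7 (-0.51 ± 0.13, adjusted p = 0.0486). At an unadjusted p under 0.05, 27 of the 51 were lower in that fit, against 13.3% of all genes, and 0 were higher, against 14.8%. That fit had 3 old and 2 young libraries, and leaving out any other single library called 0 members. Because the library left out was the lowest in 43 of 51 members, a shift toward lower in old cells followed from leaving it out. The members also varied together over the libraries, so these counts are not counts of separate results. Without young replicate 3 instead, 14 of 51 differences were negative.

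**Figure D1:**
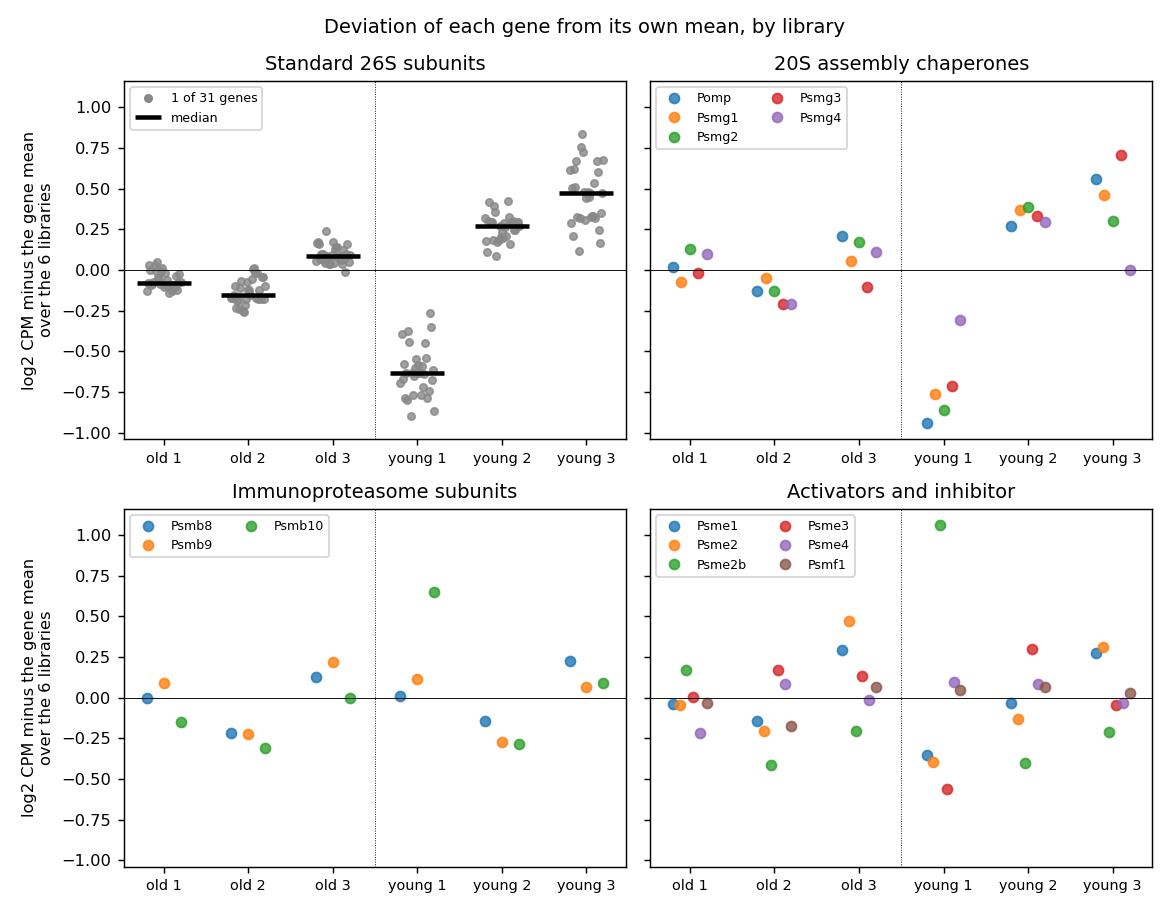
Deviation of each gene's log2 CPM from its own mean over the 6 libraries, by library and role group, with old libraries left of the dotted line and young ones right of it in each panel; 1 point is 1 gene and the black bar is the median of the 31 standard subunits. The standard subunits sit at a median of -0.63 in young replicate 1, against 0.27 and 0.47 in the other young libraries and -0.15 to 0.09 in the old ones, while Psmb10 and Psme2b are highest in young replicate 1.

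The 31 standard subunits, which together form the core and most of its cap, shared one pattern over the libraries. Their CPM summed to 4962, 4751 and 5536 in old replicates 1 to 3, against 3411, 6216 and 7075 in young replicates 1 to 3. The means were 5083 ± 406.1 in old cells and 5567 ± 1916 in young cells (SD, n = 3 each). The old libraries thus stayed close to each other, and the young ones spread to both sides of them. The sum in young replicate 3 was 2.07 times that in young replicate 1, and in young replicate 2 it was 1.82 times. Young replicate 1 was lowest in 31 of 31 subunits, and the old libraries lay between it and the other young libraries in 29 of 31. The 31 differences ran between -0.30 and 0.05, with a median of -0.13, 30 negative and standard errors of 0.19 to 0.37. The median ratio of the highest to the lowest library was 1.18 among the old and 2.12 among the young libraries, and the young range was the wider in 31 of 31 subunits. Over all genes the same median ratios were 1.22 among the old and 1.58 among the young libraries, and the young range was the wider in 8523 of 10509 genes.

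The size of that spread depended on the scale, while young replicate 1 was lowest on each. In FPKM the sum of the standard subunits was 3866, 3648 and 4172 in old replicates, against 2658, 4734 and 5288 in young replicates. In TPM, which fixes each library's total, it was 7199, 7331 and 7754 in old replicates, against 5531, 8574 and 9051 in young replicates. Young replicate 3 held 1.99 times the sum of young replicate 1 in FPKM and 1.64 times in TPM. Young replicate 1 was the lowest library in 31 of 31 subunits on all 3 scales. Over all genes tested it was the lowest in 32.8% in CPM, 30.9% in FPKM and 21.4% in TPM. All old libraries lay below both other young libraries in 29 subunits in CPM, 30 in FPKM and 24 in TPM. In CPM, 2441 of the 10509 genes tested had that order. The shares of all genes in FPKM and TPM are not given here, so the counts on those scales have no such comparison.

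The alpha ring, whose subunits build the outer rings and the gate of the core, had 7 of 7 differences negative and 0 called, with a median of -0.19. Its CPM summed to 1167, 1080 and 1321 in old replicates, against 777.8, 1461 and 1713 in young replicates. Psma7, the alpha subunit with the highest mean level, had 231.9, 214.3 and 253.9 FPKM in old libraries, against 139.2, 295.5 and 370.3 FPKM in young libraries. Its log2 difference was -0.23 ± 0.34 (SE), and the edgeR quasi-likelihood test (Benjamini-Hochberg) gave an adjusted p of 0.902. The old values fell inside the young range. Psma5 had the most negative difference of the ring, with 95.7, 87.2 and 103.6 FPKM in old libraries, against 60.1, 134.7 and 149.4 FPKM in young libraries. Its difference was -0.29 ± 0.34, with a 95% interval of -1.08 to 0.50 and an adjusted p of 0.865 by the edgeR quasi-likelihood test (Benjamini-Hochberg). Without young replicate 1 the median of the ring was -0.46, and Psma1 and Psma5 were 2 of the 3 members called lower. Psma1 had 118.7, 115.3 and 130.7 FPKM in old libraries, against 81.3, 159.5 and 189.1 FPKM in young libraries. Psma4, with a difference of -0.01, was the nearest to 0, and it shares part of its span with the gene AY074887.

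The constitutive beta ring had 6 of 7 differences negative and 0 called, with a median of -0.17. Its CPM summed to 1034, 915.3 and 1109 in old replicates, against 685.1, 1225 and 1492 in young replicates. Psmb5, which carries the chymotrypsin-like site, had 117.1, 101.7 and 123.5 FPKM in old libraries, against 72.2, 134.6 and 206.1 FPKM in young libraries. Psmb6, which carries the caspase-like site, had 131.6, 120.8 and 138.9 FPKM in old libraries, against 90.04, 156.6 and 219.7 FPKM in young libraries. Psmb7, which carries the trypsin-like site, had 113.2, 100.6 and 113.1 FPKM in old libraries, against 75.5, 135.7 and 150.4 FPKM in young libraries. In each of these catalytic genes all 3 old libraries lay between young replicate 1 and the other young libraries. The differences were -0.30 ± 0.37 for Psmb5, -0.28 ± 0.32 for Psmb6 and -0.17 ± 0.27 for Psmb7 (SE), and the 95% interval for Psmb5, -1.15 to 0.56, was the widest of the standard subunits. The adjusted p of these genes by the edgeR quasi-likelihood test (Benjamini-Hochberg) was 0.876 for Psmb5, 0.864 for Psmb6 and 0.913 for Psmb7. Psmb3, a structural subunit without a catalytic site, was the single standard subunit with a positive difference, 0.05 ± 0.32. It had 251.1, 231.8 and 278.4 FPKM in old libraries, against 132.1, 306.8 and 287.7 FPKM in young libraries. Without young replicate 1 all 7 differences were negative, with a median of -0.42 and 0 called.

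The immunoproteasome subunits did not follow the standard subunits. Psmb8, which takes the place of Psmb5, had 223.9, 192.7 and 236.4 FPKM in old libraries, against 228.7, 199.4 and 248.0 FPKM in young libraries. Psmb9, which takes the place of Psmb6, had 152.5, 125.6 and 164.7 FPKM in old libraries, against 158.7, 118.6 and 145.5 FPKM in young libraries. For both genes the 3 old and 3 young values covered nearly the same range. Psmb10, which takes the place of Psmb7, had 50.2, 44.9 and 53.8 FPKM in old libraries, against 87.3, 44.5 and 55.9 FPKM in young libraries, so that young replicate 1 stood above the other 5. Among all members, 3 were highest in young replicate 1, while 33.2% of all genes were. The log2 difference of Psmb8 was -0.06 ± 0.17, with a 95% interval of -0.47 to 0.34 and an adjusted p of 0.959 by the edgeR quasi-likelihood test (Benjamini-Hochberg). That of Psmb9 was 0.06 ± 0.19, with an interval of -0.37 to 0.49 and an adjusted p of 0.961 by the same edgeR test. That of Psmb10 was -0.35 ± 0.25, with an interval of -0.93 to 0.23 and an adjusted p of 0.732, again by edgeR, and without young replicate 1 it was -0.06 ± 0.16. These intervals leave room for differences of either sign, so equal levels in old and young cells were not shown. Young replicate 1 was the lowest library in 0 of these 3 genes, and without it their median difference was -0.06, against -0.38 for the standard subunits.

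**Figure D2:**
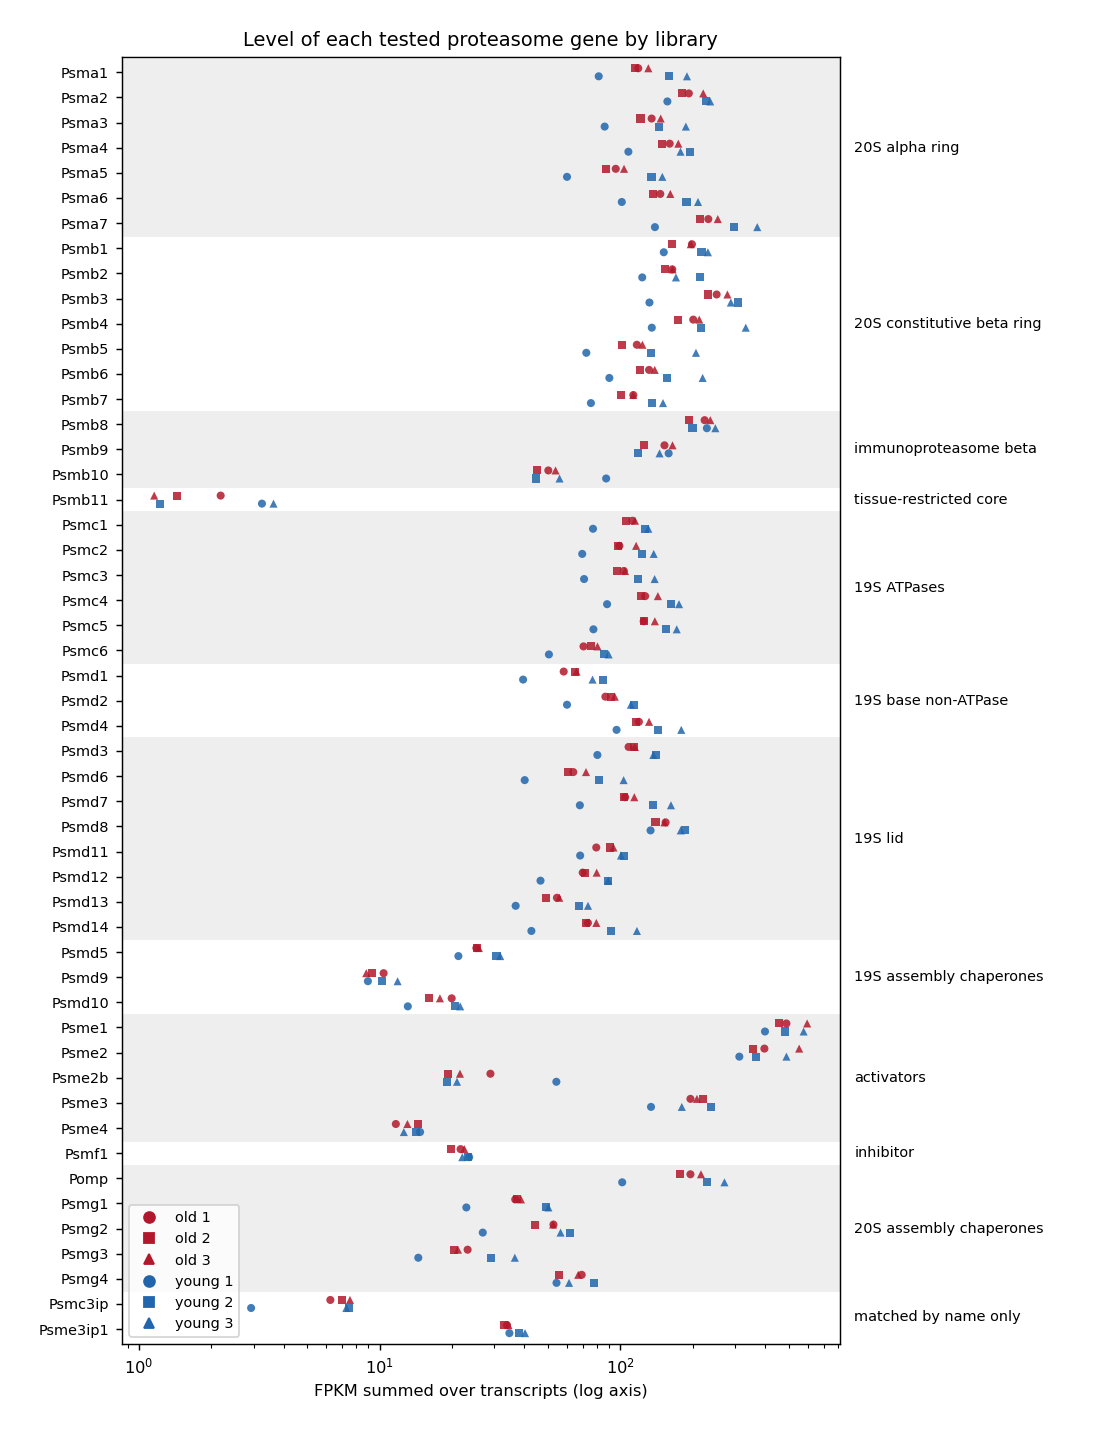
FPKM of each tested member in each library on a log axis, 1 gene a row with its old libraries (red) drawn above its young ones (blue) and the symbol shape giving the replicate number. In Psmb5, Psmb6 and Psmb7 young replicate 1 lies lowest of the 6, with 72.2, 90.04 and 75.5 FPKM, and in Psmb10 it lies highest, with 87.3 FPKM.

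Set against their counterparts, the immunoproteasome subunits were at nearly constant ratios in the old libraries and at widely different ratios in the young ones. The Psmb8 to Psmb5 ratio of FPKM was 1.91, 1.89 and 1.91 in old libraries, against 3.17, 1.48 and 1.2 in young libraries. The Psmb9 to Psmb6 ratio was 1.16, 1.04 and 1.19 in old libraries, against 1.76, 0.758 and 0.662 in young libraries. The Psmb10 to Psmb7 ratio was 0.444, 0.446 and 0.476 in old libraries, against 1.16, 0.328 and 0.372 in young libraries. In all 3 pairs young replicate 1 had the highest ratio, the old libraries came next, and young replicates 2 and 3 had the lowest. The group means therefore hid the order: for Psmb8 to Psmb5 they were 1.91 ± 0.0113 in old cells and 1.95 ± 1.06 in young cells (SD, n = 3 each). Psmb8, Psmb9 and Psmb10 together gave 54.1%, 52.9% and 54.8% of the FPKM of the 6 catalytic genes in old libraries, against 66.6%, 45.9% and 43.8% in young libraries. With 3 libraries against 3, the smallest p that an exact two-sided permutation test allows is 0.1, and the groups overlapped in every ratio. The young library with the highest ratios was also the one with the most B cell marker RNA, 38.1 CPM, and the part of that in the ratios was not tested.

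**Figure D3:**
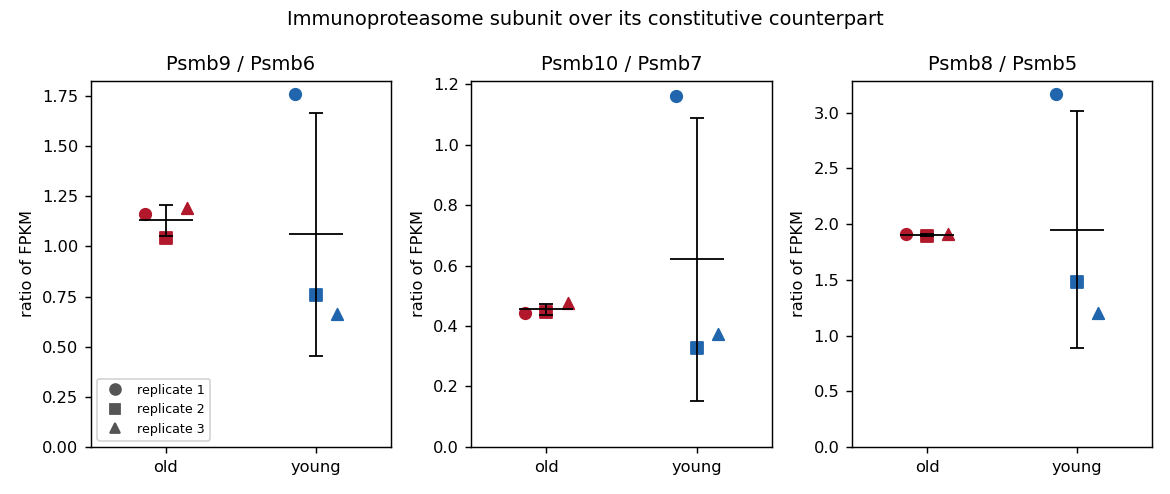
Ratio of FPKM of each immunoproteasome subunit to the constitutive subunit whose place it takes, in each library, old libraries left of young ones, with lines for the group mean and bars for the SD (n = 3 each). The old libraries lie between 1.89 and 1.91 for Psmb8 to Psmb5, and the young ones between 1.2 and 3.17.

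The promoters of a pair of constitutive and a pair of immunoproteasome catalytic genes are shown, each from a ratio above and each with a match to a searched motif. Of the other genes in those ratios, Psmb10 had no match to a searched motif, and no promoter sequence was at hand for Psmb7. Each line gives 120 bases before the start site that the RefSeq promoter table uses, in the direction of transcription, from RefSeq on build GRCm38.p6, and capitals mark the match to a searched motif. The Psmb5 stretch is chr14:54617996-54618115 on the minus strand and that of Psmb6 is chr11:70525237-70525356 on the plus strand, both with the antioxidant response element core TGACNNNGC. The annotated span of Psmb6 begins at position 70525324, from another start, so the end of its stretch with the marked match lies inside that span. The Psmb8 stretch is chr17:34198075-34198194 on the plus strand, with the gamma-activated site TTCNNNGAA. The Psmb9 stretch is chr17:34187331-34187450 on the minus strand, with the CCAAT box read on the other strand as ATTGG.
Psmb5: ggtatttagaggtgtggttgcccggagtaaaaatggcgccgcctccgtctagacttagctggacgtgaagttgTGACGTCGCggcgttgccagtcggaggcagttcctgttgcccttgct
Psmb6: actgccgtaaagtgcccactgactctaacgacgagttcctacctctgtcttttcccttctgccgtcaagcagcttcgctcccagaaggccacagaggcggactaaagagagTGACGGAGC
Psmb8: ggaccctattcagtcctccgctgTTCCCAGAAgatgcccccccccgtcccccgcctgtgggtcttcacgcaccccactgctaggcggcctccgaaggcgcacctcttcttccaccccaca
Psmb9: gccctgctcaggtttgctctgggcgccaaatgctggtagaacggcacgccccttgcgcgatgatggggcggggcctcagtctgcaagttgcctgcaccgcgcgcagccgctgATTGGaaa

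The motifs were searched on both strands in the 250 bases before the start of each gene, and a promoter sequence was at hand for 44 of the 52 members and 27025 genes in all. TGACNNNGC stood in 5 of the 44 members (11.4%), namely Psmb5, Psmb6, Psmc6, Psmd12 and Psmd9, against 11.5% of all genes. CCAAT stood in 16 members (36.4%), against 37.5% of all genes. The core of the interferon-stimulated response element, searched as GAAA repeated after any 2 bases, stood in 3 members (6.82%), against 3.46% of all genes, and in 0 of the 3 immunoproteasome genes. TTCNNNGAA stood in 2 members (4.55%), Psmb8 and Psmg1, against 8.13% of all genes. The members' shares were thus close to those of all genes for the first 2 motifs, and rest on few matches for the others. Such matches describe letters in these windows and do not show that a factor binds there.

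The cap is built from a base of ATPases, which unfold the substrate, with non-ATPase scaffolds and ubiquitin receptors, and from a lid that removes ubiquitin. The ATPases Psmc1 to Psmc6 had 6 of 6 differences negative and 0 called, with a median of -0.08, and their CPM summed to 952.3, 929.4 and 1079 in old replicates, against 641.9, 1167 and 1327 in young replicates. Psmc4 had 126.8, 121.7 and 143.2 FPKM in old libraries, against 88.1, 162.6 and 175.3 FPKM in young libraries, and the most negative difference of the 6, -0.14 ± 0.28. In all 6 ATPases the old libraries lay between young replicate 1 and the other young libraries. The non-ATPase base subunits Psmd1, Psmd2 and Psmd4 had 3 of 3 differences negative and 0 called, with CPM sums of 601.9, 631.4 and 688.2 in old replicates, against 426.9, 813.7 and 853.7 in young replicates. Psmd4, a ubiquitin receptor, had 119.4, 115.7 and 131.6 FPKM in old libraries, against 96.5, 143.5 and 179.1 FPKM in young libraries, and a difference of -0.21 ± 0.25. Its old values again lay inside the young range.

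The lid had 8 of 8 differences negative and 0 called, with a median of -0.17, and its CPM summed to 1207, 1194 and 1338 in old replicates, against 879.4, 1548 and 1689 in young replicates. Psmd8, the lid subunit with the highest mean level, had 154.2, 140.0 and 152.5 FPKM in old libraries, against 133.5, 185.1 and 178.2 FPKM in young libraries. Psmd6 had the most negative difference of the lid, -0.22 ± 0.34, with 63.8, 60.5 and 72.0 FPKM in old libraries, against 40.1, 81.9 and 103.2 FPKM in young libraries. Psmd7, called lower without young replicate 1, had 104.7, 103.5 and 114.3 FPKM in old libraries, against 67.9, 136.8 and 162.3 FPKM in young libraries. It is the partner of Psmd14, the deubiquitinase that releases ubiquitin chains during degradation. Psmd14 had 73.3, 72.2 and 79.5 FPKM in old libraries, against 42.7, 91.5 and 117.2 FPKM in young libraries. In 8 of 8 lid genes the old libraries lay between young replicate 1 and the other young ones. Without young replicate 1 the medians were -0.36 for the ATPases, -0.39 for the base subunits and -0.39 for the lid.

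**Figure D4:**
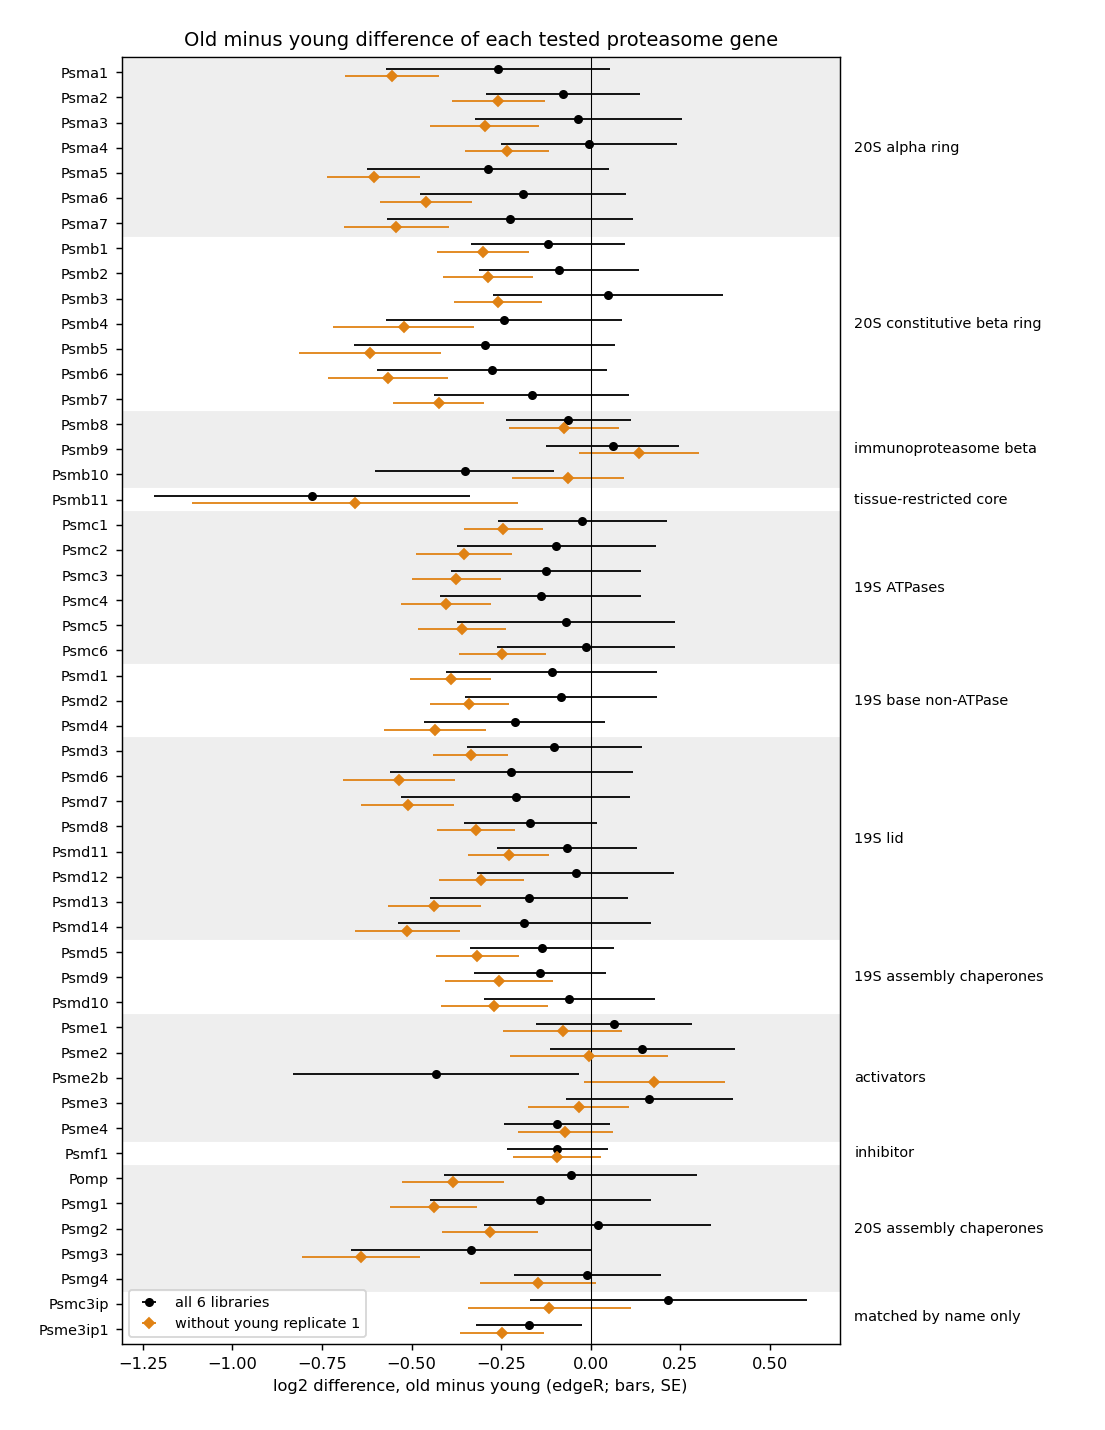
Log2 difference, old minus young, of each tested member by edgeR from all 6 libraries and without young replicate 1, grouped by role; bars are 1 SE to each side. Without young replicate 1 the standard subunits have a median of -0.38, against -0.06 for the 3 immunoproteasome genes.

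Of the 5 chaperones that assemble the core, 4 had every old library between young replicate 1 below and the other young libraries above, the exception being Psmg4. Pomp, the maturation factor that is degraded as the core is completed, had 195.5, 176.9 and 216.2 FPKM in old libraries, against 101.8, 229.8 and 270.6 FPKM in young libraries. Its difference was -0.06 ± 0.35, with an adjusted p of 0.98 by the edgeR quasi-likelihood test (Benjamini-Hochberg), and -0.38 ± 0.14 without young replicate 1. Psmg1 and Psmg2, which act as a pair in forming the alpha ring, showed the same order of libraries. Psmg1 had 36.6, 37.2 and 38.7 FPKM in old libraries, against 22.9, 49.0 and 50.3 FPKM in young libraries. Psmg2 had 52.8, 44.0 and 52.6 FPKM in old libraries, against 26.8, 62.0 and 56.5 FPKM in young libraries. The other pair, Psmg3 and Psmg4, differed from each other. Psmg3 had 23.2, 20.5 and 21.2 FPKM in old libraries, against 14.5, 29.1 and 36.5 FPKM in young libraries, and Psmg4 had 69.1, 55.4 and 66.9 FPKM in old libraries, against 54.3, 77.8 and 61.2 FPKM in young libraries. Old and young values were interleaved in Psmg4, with a difference of -0.01 ± 0.20. Psmg3 had a difference of -0.33 ± 0.34 with all libraries and -0.64 ± 0.16 without young replicate 1, where the edgeR quasi-likelihood test (Benjamini-Hochberg) gave an adjusted p of 0.0507. The chaperones of the cap, Psmd5, Psmd9 and Psmd10, had 3 of 3 differences negative, 0 called and CPM sums of 106, 97.2 and 103 in old replicates, against 82.9, 117.7 and 131.9 in young replicates. Psmd5 had 25.3, 25.4 and 25.9 FPKM in old libraries, against 21.3, 30.6 and 31.7 FPKM in young libraries. Psmd9 had 10.4, 9.28 and 8.81 FPKM in old libraries, against 8.95, 10.2 and 11.9 FPKM in young libraries, and a difference of -0.14 ± 0.18, the most negative of these 3. The old range was thus very narrow for Psmd5, at 1.024 times from lowest to highest.

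The activators had no common direction, with 3 of 5 differences positive, 2 negative and 0 called. Psme1 and Psme2 form the interferon-inducible ring that opens the core, and both were among the most abundant members. Psme1 had 489.3, 457.1 and 596.7 FPKM in old libraries, against 398.7, 484.6 and 576.9 FPKM in young libraries. Psme2 had 396.5, 355.3 and 552.8 FPKM in old libraries, against 312.0, 365.8 and 489.5 FPKM in young libraries. Old replicate 3 was the highest of the 6 libraries in both genes, and the differences were 0.07 ± 0.22 for Psme1 and 0.14 ± 0.26 for Psme2. Psme2b, a near-identical copy of Psme2 with which it may share reads, had 28.9, 19.3 and 21.6 FPKM in old libraries, against 54.2, 19.1 and 21.0 FPKM in young libraries. Summed, the pair had 376.2, 329.5 and 518.2 CPM in old libraries, against 326.9, 345.9 and 467.1 CPM in young libraries. Psme2 makes up most of that sum, so it does not show whether the Psme2b level in young replicate 1 came from shared reads. The Psme2b difference of -0.43 ± 0.40 is uncertain, being 0.18 ± 0.20 without that library. The span of Psme2b also overlaps the gene 9930111J21Rik1, and that of Psme1 overlaps Emc9.

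Psme3, the nuclear activator, had 195.5, 220.5 and 208.0 FPKM in old libraries, against 134.1, 237.2 and 180.0 FPKM in young libraries, with a difference of 0.16 ± 0.23. Psme4, the large activator linked in mice to the male germ line, had 11.7, 14.5 and 13.1 FPKM in old libraries, against 14.7, 14.2 and 12.6 FPKM in young libraries, with a difference of -0.09 ± 0.15. Both groups overlapped in these genes. Psmf1, an inhibitor of the core in vitro, had the narrowest range of any tested member over the young libraries in CPM, with 21.7, 19.8 and 22.5 FPKM in old libraries, against 23.6, 23.4 and 22.1 FPKM in young libraries. Its difference was -0.09 ± 0.14. By the edgeR quasi-likelihood test (Benjamini-Hochberg) the adjusted p was 0.895 for Psme3, 0.908 for Psme4 and 0.902 for Psmf1.

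The core genes known for restricted tissues were at or near the lowest levels of the family. Psmb11, the thymic cortical counterpart of Psmb5, had 2.19, 1.44 and 1.16 FPKM in old libraries, against 3.25, 1.23 and 3.63 FPKM in young libraries. Its difference, -0.78 ± 0.44, was the largest of any member in size, yet its groups overlapped and its adjusted p was 0.631 by the edgeR quasi-likelihood test (Benjamini-Hochberg). Psma8, the testis counterpart of Psma7, averaged 0.0333 FPKM in old libraries and 0.113 FPKM in young libraries and was not tested. A pair of genes shared the naming pattern without being proteasome subunits. Psmc3ip, a recombination factor, had 6.25, 7 and 7.54 FPKM in old libraries, against 2.93, 7.48 and 7.28 FPKM in young libraries, and Psme3ip1, a partner of Psme3, had 33.8, 32.8 and 34.3 FPKM in old libraries, against 34.6, 37.8 and 40.2 FPKM in young libraries. The FPKM of Psme3ip1 was thus lower in every old library than in every young one, while its CPM overlapped and its difference was -0.17 ± 0.15, with an adjusted p of 0.797 by the edgeR quasi-likelihood test (Benjamini-Hochberg). The share of all genes apart in FPKM is not given here, and in CPM 16.4% of all genes were apart in either direction.

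The table gives 85 transcripts for the 52 members, 32 of which have 1 transcript only. Among member transcripts with a mean share of 5% to 95% of their gene's FPKM, 5 of 30 had shares that were apart between old and young libraries, where 7.46% of all such transcripts were. The curated Psmb10 transcript gave 91.3%, 90% and 92.5% of the gene's FPKM in old libraries, against 81.8%, 82.8% and 85.5% in young libraries. A predicted Psmb10 transcript gave 5.99%, 5.99% and 5.5% in old libraries, against 10%, 12.5% and 11.9% in young libraries. The shares of these Psmb10 transcripts were thus apart between the age groups although the level of the gene was not. Another predicted Psmb10 transcript overlapped, with 2.71%, 4.05% and 2.01% in old libraries, against 8.12%, 4.74% and 2.52% in young libraries. For Psmf1 the curated transcript gave 28.1%, 26.1% and 28.6% in old libraries, against 22.3%, 19.2% and 17.9% in young libraries, with the rest mostly in a predicted one. A predicted Psma3 transcript gave 86.6%, 89.1% and 89.2% in old libraries, against 90.3%, 90.6% and 93.3% in young libraries. RSEM divides reads among transcripts by a model, these shares were not tested, and shares of transcripts of 1 gene are not independent.

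Of the genes around the proteasome, none of the lists had a member called by edgeR with all libraries. Among 9 further subunits and bound enzymes 0 were called, with a median difference of 0.02. Sem1, a small lid subunit, had 53.4, 38.4 and 50 CPM in old libraries, against 33.5, 57.9 and 124.9 CPM in young libraries, and a difference of -0.61 ± 0.44. Uchl5, a deubiquitinase of the cap, had 45.7, 45.8 and 51.9 CPM in old libraries, against 32.2, 64.3 and 79.3 CPM in young libraries, in the same order of libraries as most standard subunits. Without young replicate 1 it was called lower by the edgeR quasi-likelihood test (Benjamini-Hochberg) (difference -0.59 ± 0.14, adjusted p = 0.0382). In that fit 2.98% of all genes were called lower in old cells. Young replicate 1 was the lowest library for Uchl5, so a shift toward lower in old cells followed from leaving it out. Among 18 ubiquitin genes, activating enzymes and shuttle factors 0 were called, with a median of 0.01.

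Among 10 tested regulators of proteasome genes 0 were called by edgeR, against 0.875% of all genes, and 2, Nfe2l1 and Stat3, by DESeq2, against 4.77% of all genes. Nfe2l1, the transcription factor that raises proteasome subunit transcription when the proteasome is inhibited, had 178.4, 231.4 and 229.0 CPM in old libraries, against 106.5, 139.9 and 119.2 CPM in young libraries. Stat3, a cytokine-activated transcription factor, had 438.2, 495.1 and 457.1 CPM in old libraries, against 348.8, 278.8 and 259.7 CPM in young libraries. All old libraries lay above all young ones in both genes, as in 9.9% of all genes. The difference of Nfe2l1 was 0.81 ± 0.18, with an adjusted p of 0.116 by the edgeR quasi-likelihood test (Benjamini-Hochberg) and 0.0276 without young replicate 1. That of Stat3 was 0.65 ± 0.17, with an adjusted p of 0.185 by the same edgeR test and 0.0099 without young replicate 1. In the fit without that library 5.86% of all genes were called higher in old cells. Young replicate 1 was the lowest young library for Nfe2l1 and the highest for Stat3. Mafg, a small Maf partner of Nfe2l1, was also apart, with a difference of 0.33 ± 0.17.

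The antigen processing genes, 10 in all, and the interferon gamma axis, 10 in all, had 0 called by edgeR each. Tapbpl, a peptide editor of class I molecules, had 146.4, 168.4 and 194.0 CPM in old libraries, against 137.7, 116.5 and 117.9 CPM in young libraries, and a difference of 0.45 ± 0.17 with an adjusted p of 0.378 by the edgeR quasi-likelihood test (Benjamini-Hochberg). Ifng, the cytokine that induces the immunoproteasome subunits, had 63.9, 103.7 and 301.0 CPM in old libraries, against 6.19, 29.5 and 37.0 CPM in young libraries. It was higher in every old library than in every young one, as in 9.9% of all genes. Its difference was 2.69 ± 0.78, with an adjusted p of 0.224 by the edgeR quasi-likelihood test (Benjamini-Hochberg). DESeq2 called 1 gene of that list, Ifng, against 4.77% of all genes. Irf1, a transcription factor induced by interferon gamma, had another order. It had 469.8, 448.4 and 615.9 CPM in old libraries, against 713.2, 456.8 and 554.7 CPM in young libraries. Nlrc5, the transactivator of class I genes, had 332.4, 371.2 and 352.7 CPM in old libraries, against 468.5, 199.2 and 209.9 CPM in young libraries. Young replicate 1 was the highest library in 5 and the lowest in 4 of the 10 interferon gamma axis genes, and the highest in 3 and the lowest in 4 of the 10 antigen processing genes, against 33.2% of all genes highest and 32.8% lowest there. The receptor gene Ifngr1 had 282.4, 196.1 and 165.3 CPM in old libraries, against 446.9, 119.4 and 111.8 CPM in young libraries. With all libraries, the difference was 0.27 ± 0.34 for Nlrc5 (adjusted p = 0.879) and -0.08 ± 0.54 for Ifngr1 (adjusted p = 0.982) by the edgeR quasi-likelihood test (Benjamini-Hochberg). With young replicate 1 left out, when 5.86% of all genes were called higher in old cells, both were called higher by the same edgeR test, Nlrc5 with a difference of 0.78 ± 0.11 (adjusted p = 0.00863) and Ifngr1 with one of 0.89 ± 0.22 (adjusted p = 0.0428). These calls rest on leaving out the library in which both genes were highest, and for Ifngr1 the sign turned with it.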

How the data were processed

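The deposited table gives, per the file headers, FPKM and RSEM expected counts for each RefSeq transcript in each of the 6 libraries. The submitters' processing notes name Bowtie, RSEM and the builds GRCm38 and mm10; versions and the use of strand are not given in these sources. Both measures were summed over the 66712 transcripts to 19977 genes by Entrez ID, and 19830 IDs matched a RefSeq symbol; the 147 without one held 0.121% to 0.211% of the counts and stayed in the fit.

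The expected counts deposited by the authors were rounded and tested with edgeR 4.0.16 in R 4.3.3 (quasi-likelihood test, TMM factors, Benjamini-Hochberg over 10509 genes at or above a mean FPKM of 1, threshold 0.05), with no covariate, after tests on simulated data. Differences are log2, old minus young, with standard errors; 95% intervals use the degrees of freedom of the fit, and CPM are TMM-scaled. The FPKM values deposited by the authors give levels and ratios, and TPM was rescaled from them. Alternatives used DESeq2 1.42.0, limma 3.58.1 with pseudocounts of 1 and 0.1, other filters, RLE factors, the replicate number as a block, and each library left out in turn. Promoters come from RefSeq on GRCm38.p6.

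Described with values by library are the immunoproteasome genes, their counterparts, activators, inhibitor, core chaperones and, in each other role group, the gene with the highest level and those with the largest difference in each direction; Psma1, Psma4, Psmd7 and Psmd14 were named after their values were seen. Of related lists up to 4 genes with the smallest p were eligible, and Irf1, Nlrc5, Ifngr1, Sem1, Uchl5 and Mafg include some named after their values were seen. The members and lists were chosen with earlier results of these data known. One gene of the related lists is not reported here. For 7 members the span overlaps another tested gene.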

Additional observations from a re-analysis of the deposited data

How the results depend on the processing

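The number of all genes called was 92 by edgeR with all libraries, 203 with no filter on low values, 55 with a mean FPKM of at least 5, 501 by DESeq2 and 49 by limma on log2(TPM + 1), and 0 to 929 when a library was left out, the highest without young replicate 1. Proteasome genes called were 0 under every other setting tried except the leaving-out of libraries, where they were 0 to 3, the 3 again without young replicate 1. The median of the activators ran from -0.082 to 0.165 when a library was left out, and that of the standard subunits from -0.38 to 0.07, where 4 of 31 differences were negative without young replicate 3. By limma on log2(TPM + 1) 20 of the 31 were negative, with a median of -0.02, against 0.041 over all genes in that fit. The same numbers in both groups are not given as pairs, and deviations of same-numbered libraries correlated at 0.22, -0.03 and 0.18; with the replicate block 119 genes and 0 proteasome genes were called. Opposite signs, none past the threshold, came for Pomp by limma on log2(FPKM + 1) (0.079), on log2(FPKM + 0.1) (0.080), on log2(TPM + 1) (0.12) and with the replicate block (0.06), for Psmg1 by limma on log2(TPM + 1) (0.001), for Psma4 with no filter (0.016), by limma on log2(FPKM + 1) (0.052), on log2(FPKM + 0.1) (0.052), on log2(TPM + 1) (0.088) and with the replicate block (0.040), and for Psmg4 with no filter (0.015), by limma on log2(TPM + 1) (0.03) and with the replicate block (0.005). Leaving out single libraries gave ranges that crossed 0: Pomp -0.38 to 0.24, Psma1 -0.55 to 0.013, Psma4 -0.23 to 0.15, Psma7 -0.54 to 0.094, Psmb3 -0.26 to 0.24, Psmb5 -0.61 to 0.14, Psmb6 -0.56 to 0.081, Psmb7 -0.42 to 0.049, Psmb8 -0.15 to 0.030, Psmb9 -0.056 to 0.18, Psmc3ip -0.12 to 0.42, Psmc4 -0.40 to 0.059, Psmd4 -0.43 to 0.029, Psmd6 -0.54 to 0.10, Psmd7 -0.51 to 0.069, Psmd14 -0.51 to 0.16, Psme1 -0.078 to 0.22, Psme2 -0.082 to 0.35, Psme2b -0.70 to 0.18, Psme3 -0.034 to 0.38, Psmg1 -0.44 to 0.057, Psmg2 -0.28 to 0.23 and Psmg4 -0.15 to 0.15. The cause was not tested. Of 461 values of 33 named members under these settings, 408 kept their sign and side of the threshold, 50 took the opposite sign and 3, Psma1, Psma5 and Psmd7 without young replicate 1, were newly past it. With 3 libraries a group and standard errors of 0.19 to 0.37 for the standard subunits, differences of the size seen here were not detectable.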
